A study of Homo sapiens with 4 samples.

Results

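The genes described here are 8 metallothioneins of the human family (MT1A, MT1E, MT1F, MT1G, MT1M, MT1X, MT2A and MT3), MTF1, which encodes the zinc sensor that switches metallothionein genes on, and SLC30A1, which encodes a zinc exporter under the same control. They were taken by gene name from the deposited counts table, and 10 of its 60675 gene rows were chosen in this way. The cells were HT1080, a human fibrosarcoma line, and all of them carried a knockout of KDAC8. KDAC8, the product of HDAC8, is a lysine deacetylase. The series holds 1 group of 4 replicate libraries with this genotype and no parental or wild-type library analysed here, so the effect of the knockout on these genes cannot be measured, and levels, ratios between genes and the spread between libraries are given instead. Cells grew in MEM with fetal bovine serum, no metal treatment is named in the labels, and total RNA was depleted of ribosomal RNA. The labels do not say whether the line is 1 clone or whether the replicates came from separate cultures, so the p-values speak of the spread between these 4 samples alone, and that spread may be technical.

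Metallothioneins are very small, cysteine-rich proteins that bind zinc and copper through clusters of thiolates, buffer free zinc in the cell and take up toxic metals such as cadmium. MTF1 is a zinc finger transcription factor that is activated by free zinc and binds metal response elements, short sequences in the promoters of metallothionein genes and of SLC30A1. MT2A and several MT1 genes are expressed in many tissues, whereas MT3 is known from the brain and MT4 from stratified squamous epithelium.

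Total counts were 39454210, 43722295, 45828807 and 41241908 in replicates 1 to 4. HDAC8 itself had 80, 89, 95 and 107 counts, which does not check the knockout, since the labels do not say which part of the gene was altered. A gene is called detected here when every library held at least 1 CPM (counts per 1e6 counts of the scaled library). Of 6 genes listed as fibrosarcoma or mesenchymal markers 5 were detected (VIM, FN1, CD44, COL6A3 and NRAS), beside 58.8% of protein-coding rows. S100A4 was the exception at 0.449 ± 0.143 CPM (SD, n = 4). All 3 epithelial markers (EPCAM, CDH1 and KRT5) had 0 counts, and none of 3 blood, 3 endothelial or 5 liver, kidney and astrocyte markers was detected.

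The core of the metal response element was searched for as TGCACNC and TGCGCNC on both strands of the RefSeq promoter windows (GRCh38.p14), which run from 250 bases before to 50 bases after a gene's start. A window was available for 4 of the 10 genes (MT2A, MT1X, SLC30A1 and MTF1) and for 3 other metallothionein genes (MT1H, MT1B and MT4). The 4 windows that show how the cores are spread are printed 5′ to 3′ on the gene's own strand, with every core match in capitals. They are MT2A (chr16:56608334-56608633, forward strand), the highest gene, MT1X (chr16:56682220-56682519, forward strand), a low one, MT1H (chr16:56669564-56669863, forward strand), at 0 counts, and SLC30A1 (chr1:211579112-211579411, reverse strand), the exporter.
MT2A promoter: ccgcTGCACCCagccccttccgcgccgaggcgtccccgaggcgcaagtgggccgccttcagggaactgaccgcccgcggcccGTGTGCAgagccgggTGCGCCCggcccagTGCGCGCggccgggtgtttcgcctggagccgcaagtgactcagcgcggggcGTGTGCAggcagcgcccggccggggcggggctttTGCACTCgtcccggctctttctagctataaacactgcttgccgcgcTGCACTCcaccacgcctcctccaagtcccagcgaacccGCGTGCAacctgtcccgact
MT1X promoter: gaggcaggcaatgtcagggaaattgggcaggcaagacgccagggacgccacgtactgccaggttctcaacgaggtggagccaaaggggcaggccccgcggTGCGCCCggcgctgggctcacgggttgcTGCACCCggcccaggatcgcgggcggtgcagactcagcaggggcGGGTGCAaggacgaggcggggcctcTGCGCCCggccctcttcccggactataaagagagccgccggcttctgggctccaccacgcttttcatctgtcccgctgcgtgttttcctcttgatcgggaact
MT1H promoter: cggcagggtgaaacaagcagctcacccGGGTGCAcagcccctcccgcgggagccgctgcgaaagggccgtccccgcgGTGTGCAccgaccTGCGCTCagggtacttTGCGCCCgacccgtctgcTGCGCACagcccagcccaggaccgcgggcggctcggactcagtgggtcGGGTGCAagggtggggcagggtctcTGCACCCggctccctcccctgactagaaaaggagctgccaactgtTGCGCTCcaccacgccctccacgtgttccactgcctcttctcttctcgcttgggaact
SLC30A1 promoter: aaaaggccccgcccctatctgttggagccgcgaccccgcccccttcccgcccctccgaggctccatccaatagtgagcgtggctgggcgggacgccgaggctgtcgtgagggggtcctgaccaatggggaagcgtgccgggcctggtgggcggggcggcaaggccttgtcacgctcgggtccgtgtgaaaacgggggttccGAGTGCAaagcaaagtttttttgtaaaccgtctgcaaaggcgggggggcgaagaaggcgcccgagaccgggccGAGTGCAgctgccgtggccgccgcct

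The MT2A window held 8 core matches, 5 on the sense strand and 3 on the antisense strand. Counted from the RefSeq start site, they began at -246, -168, -153, -139, -88, -54, -8 and 30. The MT1X window held 4, at -150, -122, -78 and -53. The SLC30A1 window held 2, both of them GAGTGCA, the reverse complement of TGCACTC, at -49 and 24. The MTF1 window (chr1:37859543-37859842, reverse strand) held 0, as letters only. No 2 neighbouring matches overlapped in these windows. Among all 35116 windows of the table the median was 0 matches, 29.6% held at least 1, 8.60% at least 2, 0.601% at least 4 and 0.0199%, or 7 windows, at least 8. The TATA box letters TATAAA on the sense strand, present in 7.33% of all windows, began at -29 in MT2A and at -30 in MT1X. They also began at -29 in MT4 and at -30 in MT1B, whose rows had 0 counts.

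The number of matches did not order the genes by their counts. MT1H, a metallothionein gene of the same cluster, also held 8 matches, and its row had 0 counts in all 4 libraries, against 85129 counts summed over the libraries for MT2A. The windows of MT1B and MT4 held 3 matches each, and their rows also had 0 counts. A match of letters does not show that the site is bound.

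**Figure D1:**
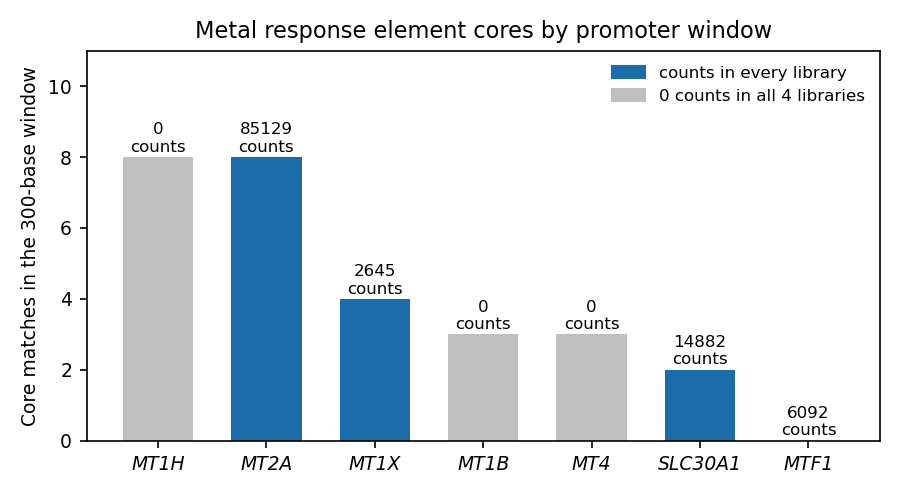
Bars give the number of metal response element core matches (TGCACNC or TGCGCNC, both strands) in the RefSeq promoter window of each of 7 genes, and the label over each bar gives the deposited counts summed over the 4 KDAC8 knockout libraries. MT2A and MT1H both stand at 8 matches, with 85129 counts for MT2A and 0 counts for MT1H.

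The reads of different metallothionein genes can be hard to tell apart, because the coding sequences are close copies. The sequences of 3 genes are printed from GENCODE release 29 (GRCh38), all on the forward strand of chromosome 16, because their likeness bears on how far the rows can be separated. They are the 3 metallothioneins with many counts. Capitals in MT1E and MT1X mark the bases that differ from MT2A at the same position, with no gap.
MT2A coding sequence: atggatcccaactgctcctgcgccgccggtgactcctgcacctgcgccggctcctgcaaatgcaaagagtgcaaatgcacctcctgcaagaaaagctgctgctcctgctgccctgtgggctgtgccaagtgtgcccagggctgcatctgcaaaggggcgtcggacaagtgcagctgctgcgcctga
MT1E coding sequence: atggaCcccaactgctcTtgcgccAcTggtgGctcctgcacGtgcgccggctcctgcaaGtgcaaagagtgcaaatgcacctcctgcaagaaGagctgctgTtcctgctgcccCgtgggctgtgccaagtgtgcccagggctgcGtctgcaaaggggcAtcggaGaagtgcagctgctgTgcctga
MT1X coding sequence: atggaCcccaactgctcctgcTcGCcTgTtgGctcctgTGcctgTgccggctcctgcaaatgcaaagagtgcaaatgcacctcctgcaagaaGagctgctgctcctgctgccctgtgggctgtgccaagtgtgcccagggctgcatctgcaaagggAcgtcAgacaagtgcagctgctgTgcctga

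Each of these 3 runs is 186 bases long, and MT1E and MT1X each differed from MT2A at 14 positions, an identity of 92.5%. MT1M and MT1F, of the same length, differed from MT2A at 19 and 16 positions. MT1G had 189 coding bases and an identity of 93.7% with MT2A, and MT3, with 207 coding bases, 72.5%. The coding sequences of these 7 metallothioneins held 20 cysteine codons each.

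Over stretches of 150 bases, a read length named in the labels, no stretch of the coding transcripts of MT2A, MT1E, MT1A, MT1F, MT1G, MT1M or MT3 was shared with a transcript of another gene. For MT1X, 25.7% of the stretches were shared, all with AC026461.1, a noncoding row that overlaps it on the same strand. AC026461.1 had 0 counts in every library. Over 75 bases the shared part was 36.8% for MT1X, 1.42% for MT1E and 0% for MT2A. Over 31 bases it was 45.2% for MT1X, 15.6% for MT1E and 9.90% for MT2A. Where a read fits several rows, counts of this kind may be divided between them, which leaves values that are not whole. Within a tolerance of 0.005, 0 of the 12 values of MT2A, MT1E and MT1X were not whole, against 27.0% of the 100211 nonzero values of the whole table. MT1X had whole values although it shared stretches with AC026461.1, so whole values alone do not show that rows were told apart. The rows of this family remain uncertain to the extent of their shared stretches.

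Of the 10 genes, 5 were detected, namely MT2A, MT1E, MT1X, SLC30A1 and MTF1. Over all 60675 rows 21.4% were detected, and over the 19693 protein-coding rows 58.8%. One further gene, MT1F, had a few counts, and 4 genes (MT1A, MT1G, MT1M and MT3) had 0 counts in every library. In such bulk libraries a low level in every cell and a higher level in a few cells cannot be told apart.

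MT2A, the most widely expressed human metallothionein, was by far the highest of the family. It lies at chr16:56608199-56609497 on the forward strand (GRCh38, as are all gene positions here). Its counts were 19289, 23422, 23140 and 19278 in replicates 1 to 4. These correspond to 477, 556, 511 and 456 CPM. The mean was 500.03 ± 43.7 CPM (SD, n = 4). Replicate 2 was highest and replicate 4 lowest, 1.22 times apart. The row ranked 230 by CPM among the 12984 detected rows and took 0.0499% of all counts. Divided by the 1299 bases of its joined exons, its level was 385 ± 33.6 CPM per kilobase, rank 65 among the detected rows that have an annotated length.

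MT1E, an MT1 isoform of the same cluster, was the next metallothionein. It lies at chr16:56625475-56627112 on the forward strand. Its counts were 1911, 2593, 2323 and 1891, which are 47.3, 61.6, 51.3 and 44.7 CPM in replicates 1 to 4. The mean was 51.2 ± 7.41 CPM (SD, n = 4). Replicate 2 stood above the other libraries, and the order of libraries, 2, 3, 1 and 4 from high to low, was that of MT2A. The highest library was 1.38 times the lowest, the widest range among the 5 detected genes.

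MT1X, the last gene of the cluster, lies at chr16:56682424-56684196 on the forward strand. It had 656, 684, 710 and 595 counts, or 16.2, 16.2, 15.7 and 14.1 CPM in replicates 1 to 4. The mean was 15.6 ± 1.02 CPM (SD, n = 4). Replicate 4 was lowest, and replicates 1 to 3 lay close together.

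MTF1, the sensor, lies at chr1:37809567-37859620 on the reverse strand and had 1398.33, 1562, 1655.15 and 1477 expected counts. Its level was 34.6, 37.1, 36.5 and 34.9 CPM, or 35.8 ± 1.21 CPM on average (SD, n = 4). No library stood apart, and the highest was 1.07 times the lowest. A processed pseudogene on the opposite strand inside the MTF1 span, AL929472.4, had at most 2 counts in a library.

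SLC30A1, which moves zinc out of the cell across the plasma membrane, lies at chr1:211571568-211578742 on the reverse strand. It had 3608, 3903, 3823 and 3548 counts, or 89.2, 92.7, 84.4 and 83.9 CPM. On average this was 87.6 ± 4.17 CPM (SD, n = 4). Replicates 1 and 2 lay above replicates 3 and 4, and the range was 1.10 times.

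**Figure D2:**
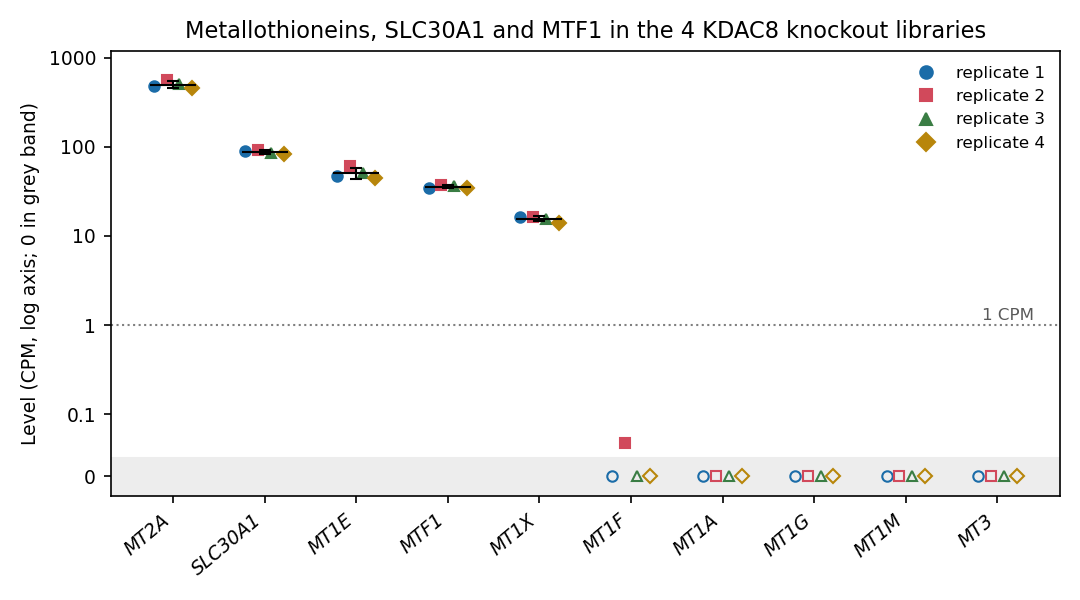
Points give the CPM of each gene in each of the 4 KDAC8 knockout libraries on a log axis, and for the 5 detected genes the lines and bars give the mean and SD. Values of 0 sit in the grey band. MT2A lies between 456 and 556 CPM, while MT1A, MT1G, MT1M and MT3 are at 0 in every library and MT1F in all but replicate 2.

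Levels of different genes were compared per kilobase of joined exons. In this measure MT2A stood at 385 ± 33.6, MT1E at 48.7 ± 7.05, SLC30A1 at 16.0 ± 0.762, MT1X at 8.77 ± 0.576 and MTF1 at 4.46 ± 0.151 CPM per kilobase (SD, n = 4 each). The ranges of neighbours in this order did not overlap, and each step held in 4 of 4 libraries. The steps were 7.94-fold from MT2A to MT1E, 3.02-fold from MT1E to SLC30A1, 1.82-fold from SLC30A1 to MT1X and 1.96-fold from MT1X to MTF1. The steps and the place of MT1X depend on the length used. Per kilobase of the shortest protein-coding transcript, which has 332 bases for MT1E, 450 for MT1X and 5474 for SLC30A1, MT1E stood at 154 ± 22.3, MT1X at 34.6 ± 2.27 and SLC30A1 at 16.0 ± 0.762 CPM per kilobase. In that measure the step from MT1E to SLC30A1 was wider, and the order of SLC30A1 and MT1X was turned round.

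Within a library the log2 ratio of MT2A to MT1E per kilobase was 3.03, 2.87, 3.01 and 3.05 in replicates 1 to 4, a mean of 2.99 ± 0.08 (SD, n = 4). The ratio to MT1E was lowest in replicate 2. The log2 ratio of MT2A to MT1X was 5.33, 5.55, 5.48 and 5.47, a mean of 5.45 ± 0.09, or 43.8-fold. Per kilobase of the shortest protein-coding transcript the mean log2 ratio of MT2A to MT1X was 4.64. MT2A was higher in 4 of 4 libraries in both ratios. An exact two-sided sign-flip permutation test gave p = 0.13 for each, also after Benjamini-Hochberg adjustment over the 2 ratios, which is the smallest p that 4 libraries allow.

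The summed level of the 8 metallothioneins was 541, 634, 578 and 515 CPM, or 567 ± 51.7 CPM on average (SD, n = 4). MT2A made up 88.3%, 87.7%, 88.4% and 88.6% of it in replicates 1 to 4, a mean of 88.2% ± 0.372. MT1E contributed 9.0% ± 0.477 and MT1X 2.75% ± 0.183. Replicate 2 had the largest sum, and its share of MT2A lay within 1 percentage point of that in the other libraries.

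The other metallothioneins were at or near 0. MT1F had 2 counts, both in replicate 2, which is 0.0475 CPM there. MT1A, MT1G, MT1M and MT3, the brain-type metallothionein, had 0 counts in 4 of 4 libraries. A total of 0 over the 4 libraries allows up to 3 counts, or 0.0176 CPM. With each gene at that limit, MT2A per kilobase of joined exons was at least 8651-fold higher than MT1A and 16384-fold higher than MT1G. By the same measure it was at least 20578-fold higher than MT1M and 40129-fold higher than MT3. Against the 2 counts of MT1F the ratio per kilobase was 61897, with a 95% exact Poisson interval of 17135 to 511104. These limits cover counting error only. They are minimum values for joined exons alone, and with other lengths they were not computed. The shortest protein-coding transcript has 581 bases for MT2A, 232 for MT1M, 421 for MT3 and 416 for MT1F. A listed 0 is no proof that a gene was silent: RNU4-2, a spliceosomal RNA that every cell needs and that was looked at after the values were seen, was also listed at 0 in all libraries.

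The human metallothionein genes sit next to each other on chromosome 16q. The table held 16 rows of this cluster, 11 protein-coding genes and 5 pseudogenes, over 119 kb. All but MT1G run on the forward strand. From MT4 at one end to MT1X at the other, 11 rows had 0 counts and 5 had any count, of which MT2A, MT1E and MT1X were detected. MT1E lies 17.3 kb after MT2A, and MT1X is the last row. Between MT1E and MT1X lie 10 rows, none of which was detected. One of them, the pseudogene MT1JP, had 5, 6, 11 and 1 counts, or 0.133 ± 0.0898 CPM (SD, n = 4). Its transcripts shared 17.1% of their stretches of 31 bases with other genes. The remaining metallothionein rows outside the 8 genes (MT1B, MT1H, MT1HL1, MT1L, MT4, MT1CP, MT1DP, MT1IP and MT1XP1) had 0 counts.

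**Figure D3:**
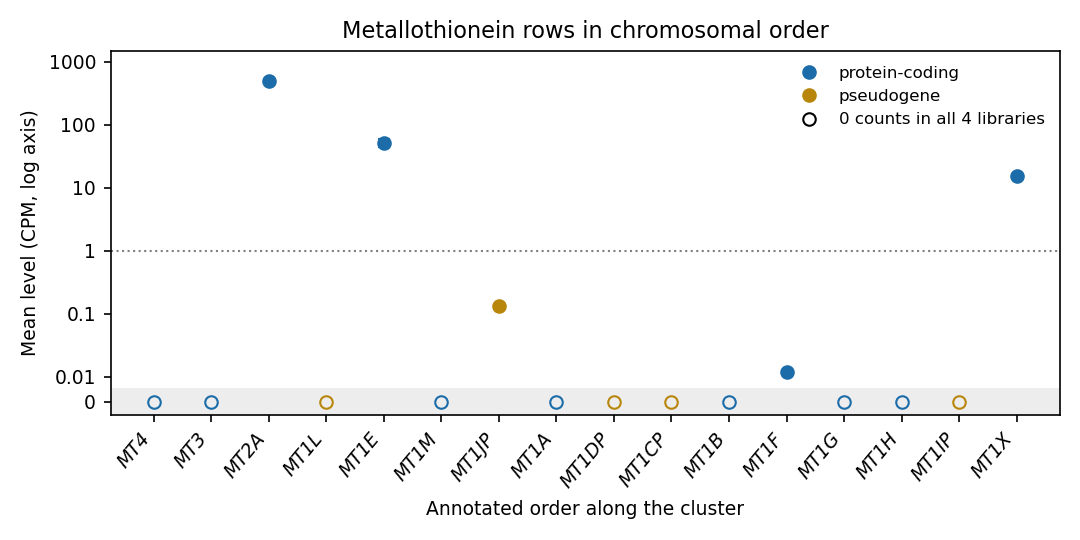
Points give the mean CPM over the 4 KDAC8 knockout libraries on a log axis for the 16 metallothionein rows of chromosome 16, in their annotated order and not to scale along the chromosome. Open points in the grey band mark the 11 rows with 0 counts, and MT2A, MT1E and MT1X are the 3 rows over 1 CPM.

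Whether a gene differed between libraries by more than counting error was tested by a chi-square test of homogeneity over the 16790 rows that averaged at least 10 counts, and the p-values were adjusted over all of them (Benjamini-Hochberg). With 1 genotype a difference has no condition to go with it. Over all rows tested 59.2% varied at an adjusted p of 0.05. Of the 5 detected genes 3 varied, a share close to that of all rows. They were MT2A (adjusted p = 3.03e-102), MT1E (7.82e-28) and SLC30A1 (4.16e-05). MTF1 (0.212) and MT1X (0.0617) did not pass. MT1X passed with DESeq2 size factors (adjusted p = 0.0422), without replicate 2 (0.0256) and without replicate 3 (0.0117), and it did not pass without replicate 1 (0.0597) or replicate 4 (0.809). MT2A, MT1E and SLC30A1 passed with any 1 library left out. A chi-square test at such depth calls small differences, and none of the 5 genes had a highest library 1.5 times its lowest or more, against 7.3% of detected rows.

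On the log2 scale MT2A deviated from its mean over libraries by -0.06, 0.16, 0.03 and -0.13 in replicates 1 to 4. MT1E deviated by -0.10, 0.28, 0.01 and -0.18. MT1X deviated by 0.06, 0.06, 0.01 and -0.14. SLC30A1 deviated by 0.03, 0.08, -0.05 and -0.06, and MTF1 by -0.05, 0.05, 0.03 and -0.03. All 5 genes had their highest value in replicate 2, although for MT1X replicate 1 was level with it to 2 decimals. This held for MT2A and MT1E also with total counts and no factor. For the other genes it depended on the scaling factor, which was lowest for replicate 2 at 0.963. With no factor SLC30A1 and MT1X were highest in replicate 1 and MTF1 in replicate 3. The SD of log2 CPM was 0.12 for MT2A, 0.20 for MT1E and 0.05 for MTF1, beside a median of 0.11 over detected rows.

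The spread of MT2A and MT1E was set beside that of other short genes. The 276 detected protein-coding genes whose longest transcript is under 1000 bases, a class that holds MT2A and MT1E, had median deviations of -0.11, 0.19, 0.05 and -0.13. Their order of libraries was that of MT2A and MT1E. The 11294 longer genes had medians of -0.00, 0.02, 0.01 and -0.03, the same order at a smaller size. Of the short genes 78.6% were highest in replicate 2, against 35.2% of the longer ones, and 85.5% of the short genes varied, against 68.9%. The part of transcript length in the spread of MT2A and MT1E was not tested.

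**Figure D4:**
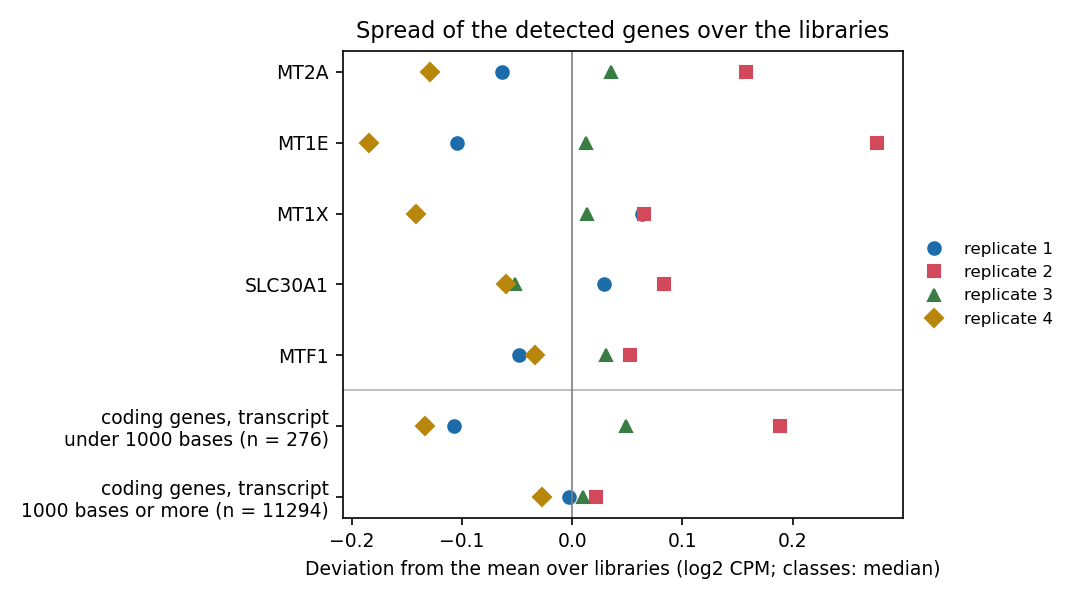
Points give the deviation of log2 CPM in each KDAC8 knockout library from the mean over the 4 libraries, for the 5 detected genes and, below the line, the median deviation of short and longer protein-coding genes. Replicate 2 lies furthest right for MT2A (0.16), MT1E (0.28) and the short class (0.19), and replicate 4 furthest left for all 3.

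The protein-coding genes whose CPM was most like that of MT2A over the 4 libraries, by the smallest maximum absolute difference in log2 CPM among 11569 rows, were RPS15 (0.04), BTF3 (0.06), RPL18 (0.06), FAM129B (0.06) and GARS (0.07). RPS15 and RPL18 encode ribosomal proteins and GARS the glycyl-tRNA synthetase. This measure is of CPM without length. Per kilobase of joined exons the 5 stood at 232, 200.2, 118, 109 and 121 CPM, all under the 385 CPM per kilobase of MT2A.

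Zinc enters the cytosol through the SLC39 (ZIP) importers and leaves it through the SLC30 (ZnT) exporters, and copper has its own carriers and chaperones. A list of 42 such genes and other metallothionein rows was examined, of which 26 were detected and 11 had 0 counts. Over all rows 21.4% were detected, and over protein-coding rows 58.8%. Of the 26 tested 23 varied, beside 59.2% of all rows tested and 68.5% of the rows that averaged at least 50 counts. Without replicate 1 the count was 14, beside 49.3% of all rows. Of the 26, none had a highest library 1.5 times its lowest or more, beside 7.3% of all detected rows. The detected list genes had a median level of 40.2 CPM and a median SD of log2 CPM of 0.11, beside 27.6 CPM and 0.11 for all detected rows.

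Among 9 zinc exporters beside SLC30A1, 6 were detected, beside 58.8% of protein-coding rows. Of those 6, 4 varied, beside 59.2% of all rows tested, so both counts lay near the background. SLC30A9, a ZnT family member reported to act at mitochondria, was highest at 117 ± 6.86 CPM (SD, n = 4). SLC30A7, a Golgi zinc transporter, stood at 90.9 ± 6.91 CPM, SLC30A6 at 69.0 ± 4.31 CPM and SLC30A5 at 66.7 ± 2.95 CPM, the last pair being the partners of a complex in the early secretory pathway. Per kilobase of joined exons SLC30A1 (16.0 ± 0.762) and SLC30A9 (16.1 ± 0.950) overlapped in their range, and SLC30A7, SLC30A6 and SLC30A5 stood at 10.9, 12.7 and 11.5 CPM per kilobase. This order also depends on the length used. Per kilobase of the shortest protein-coding transcript SLC30A9 stood at 18.7, SLC30A7 at 146, SLC30A6 at 120.3 and SLC30A5 at 175 CPM per kilobase. All 4 were above SLC30A1 at 16.0. Those transcripts have 6218, 623, 573 and 382 bases in that order, and that of SLC30A1 has 5474. Per kilobase of the longest transcript SLC30A5 stood at 15.3, SLC30A6 at 13.6 and SLC30A7 at 11.5, on average below SLC30A1 at 16.0. SLC30A9 again stood at 18.7. SLC30A3, which loads zinc into synaptic vesicles in neurons, had the widest spread of log2 CPM, at 2.18, 2.21, 2.12 and 1.56 CPM in replicates 1 to 4. Its libraries did not pass the chi-square test of homogeneity (adjusted p = 0.167). SLC30A2, SLC30A8 and SLC30A10 were under 1 CPM.

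Among 14 importers, 11 were detected, beside 58.8% of protein-coding rows. Of those 11, 10 varied, beside 59.2% of all rows tested. SLC39A14, which carries zinc, iron and manganese, was highest at 282, 264, 293 and 289 CPM in replicates 1 to 4. On average this was 282 ± 12.6 CPM, or 40.6 ± 1.82 CPM per kilobase (SD, n = 4). Per kilobase of joined exons its level was above that of SLC30A1 and below that of MT1E. Per kilobase of the shortest protein-coding transcript, which has 377 bases, it was above both, at 748 ± 33.5 CPM per kilobase. Per kilobase of the longest transcript, which has 4641 bases, SLC39A14 stood at 60.8 ± 2.72, on average below MT1E at 70.3 ± 10.2. SLC39A9 stood at 126 ± 3.50 CPM, SLC39A6, an importer of the plasma membrane, at 95.1 ± 3.08 CPM and SLC39A10, its close relative, at 81.5 ± 6.72 CPM. SLC39A4, the intestinal zinc importer, was the most variable at 3.02, 4.06, 4.04 and 3.34 CPM. SLC39A2, SLC39A5 and SLC39A12 were under 1 CPM.

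All 9 copper genes were detected, beside 58.8% of protein-coding rows, with a median of 9.28 CPM. All 9 also varied, beside 59.2% of all rows tested. SOD1, the copper and zinc superoxide dismutase, stood at 89.6 ± 7.29 CPM (SD, n = 4). SLC31A1, the plasma membrane copper importer CTR1, stood at 55.1 ± 2.25 CPM. The chaperone ATOX1, which hands copper to ATP7A and ATP7B, had 35.5 ± 3.08 CPM, and COX17, which serves cytochrome c oxidase, 15.2 ± 1.39 CPM. CCS, the chaperone of SOD1, was the most variable at 4.63, 6.51, 6.80 and 5.80 CPM, with replicate 1 lowest and a range of 1.47 times.

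**Figure D5:**
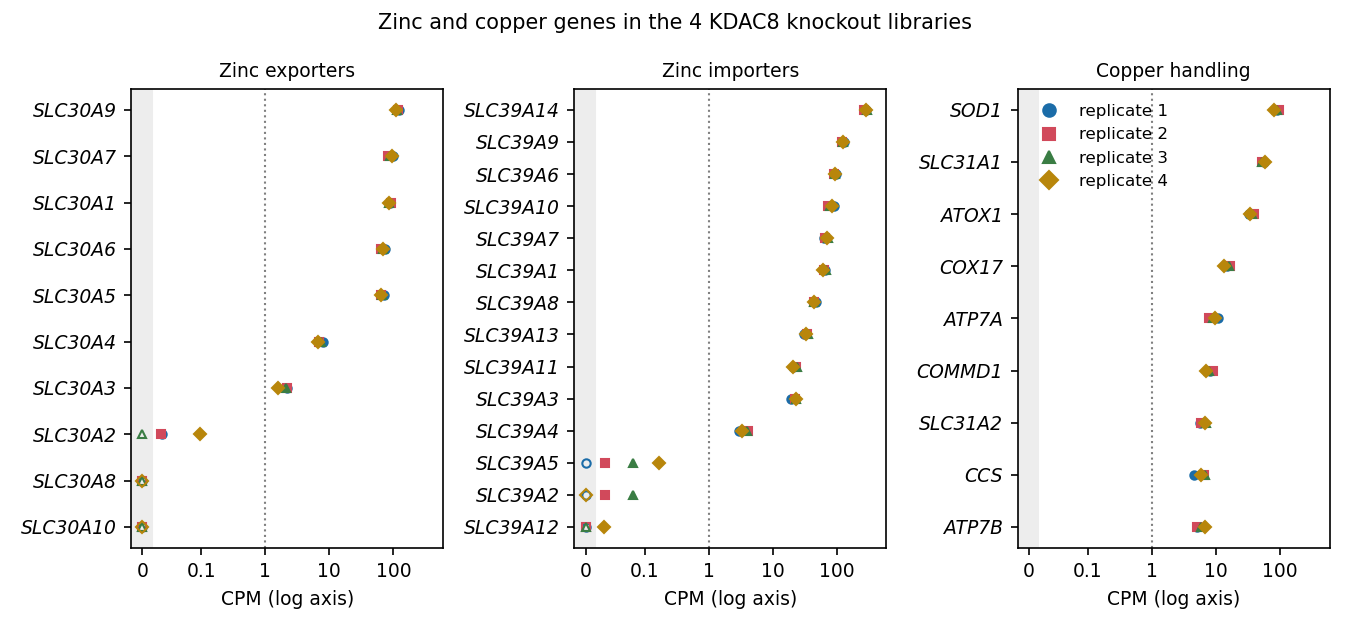
Points give the CPM in each of the 4 KDAC8 knockout libraries on a log axis for the zinc exporters with SLC30A1, the zinc importers and the copper genes, each panel ordered by mean, with values of 0 in the grey band and a dotted line at 1 CPM. SLC39A14 is the highest gene shown, at 264 to 293 CPM.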

How the data were processed

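RNA was sequenced from 4 libraries of KDAC8 knockout HT1080 cells, 1 labelled group. The authors deposited expected counts per gene, not scaled between libraries; this unit follows from the values, none of them negative and part of them not whole. The submitters' processing notes name the build GRCh38 and the tools RSEM 1.3.3, DESeq2 1.46.0, Bowtie2 2.5.4 and Trimmomatic 0.39. Not given in the sources used here are the role of each tool, the annotation, the strand setting and filters. All 4 columns matched a sample by name, and 0 were left unused.

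Positions, lengths and coding sequences came from GENCODE release 29, in which 94.03% of gene IDs were found, and promoter windows from RefSeq. Joined exons count bases of every annotated transcript once. The annotation behind the table may differ. A window starts from RefSeq's gene start, which can lie inside the wider GENCODE span, as for MT2A. For SLC30A1 the window lies wholly upstream of the GENCODE span, which ends at chr1:211578742, so the 2 annotations place its start differently.

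CPM used effective library sizes (TMM, edgeR 4.0.16 in R 4.3.3) with factors of 1.02, 0.963, 0.988 and 1.03. Expected counts were rounded for the chi-square test (3 degrees of freedom, rows with a mean of 10 or more counts), which was tested on simulated data. Logs had no pseudocount, since the genes logged had counts in every library. Ratios used an exact sign-flip test. DESeq2 1.42.0 gave the alternative size factors, and scipy 1.17.1 the tests. A 0 in 1 library allows 0.0662 to 0.0742 CPM (3 counts). Such limits and the intervals hold for counting error alone, because PCR copies are not independent molecules.

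The 10 genes and the lists were chosen with earlier results of these data known. Named were those 10, HDAC8, other metallothionein rows with any count, in each transporter or copper group the 4 highest by CPM, the most variable at 1 CPM or more and those under 1 CPM, and the 5 coding rows most like MT2A. Markers were a separate list, and genes outside the rule are marked or are named for an overlap or a sequence. MT1IP was matched by gene ID. The coding sequence of MT1A is not reported here.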

Additional observations from a re-analysis of the deposited data

Results flagged for a closer look

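Of 32 genes with a test for a library apart from the rest (the gap of the highest or lowest library to its neighbour over the whole range, against Dixon's critical value for 4 samples), 2 passed, and chance passes about 1 in 20. SLC30A3, the synaptic vesicle zinc transporter, had 2.18, 2.21, 2.12 and 1.56 CPM in replicates 1 to 4, and replicate 4 was the low one with a value of 0.862. Its counts were low, and the 4 libraries did not pass the chi-square test of homogeneity (adjusted p = 0.167). SLC39A3, a zinc importer, had 19.7, 22.6, 23.2 and 23.1 CPM, and replicate 1 was the low one with a value of 0.832 (adjusted p = 0.00443 in that test). None of the 5 detected genes among the metallothioneins, MTF1 and SLC30A1 was among them.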

How the results depend on the processing

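No paired analysis was possible because the labels give 1 group. Of 94 values of 13 results under other scalings, filters, thresholds, lengths or with a library left out, 92 kept their direction and call or stayed within their limits, and 2 moved. The limit for a level or a share was 1 SD over the libraries. Leaving 1 of 4 libraries out can hardly move a mean that far, and no scaling changes a share. For those values the tally is therefore no measure of stability. Per kilobase of the longest transcript MT2A made up 87.5% of the metallothionein sum, against 88.2% in CPM, and this alternative was chosen after seeing the data, as were the shortest coding transcript and effective library sizes over protein-coding rows. Without replicate 1 the number of zinc and copper genes that varied was 14, against 23 with all libraries, and with 1 library left out in turn it lay between 14 and 19; the cause was not tested. Among the metallothioneins, MTF1 and SLC30A1, 3 or 4 varied and 5 were detected with 1 library left out, the fourth being MT1X. The share of MT2A lay between 88.1% and 88.4%, the summed level between 551 and 579 CPM, and the log2 ratio of MT2A between 2.97 and 3.03 over MT1E and between 5.42 and 5.50 over MT1X with 1 library left out. With another length or none that log2 ratio lay between 2.49 and 3.29 over MT1E and between 4.64 and 5.94 over MT1X, the lowest of each per kilobase of the shortest coding transcript. The spread between libraries depended on the scaling. With total counts and no factor the SD was 28.8 CPM for MT2A, 34.8 CPM for the sum and 0.278 CPM for MTF1. The main values were 43.7, 51.7 and 1.21 CPM, and those with DESeq2 size factors 43.2, 51.2 and 1.11 CPM. Depth limits the genes at 0 counts, and without a control library no value here measures an effect of the knockout.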
